A study of Bos taurus with 6 samples.

Results

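Keratins, vimentin and the classical cadherins mark whether a cell holds its shape and its neighbours in an epithelial or a mesenchymal way. The genes described here are KRT7, KRT8, KRT18, KRT19, VIM, CDH1 and CDH2, taken by symbol from a list of epithelial and mesenchymal state genes, 7 of the 23704 genes to which the transcripts were assigned. RNA was measured in bovine primordial follicles (PMF), small follicles in which an oocyte lies within a single layer of flattened pregranulosa cells. They were isolated mechanically from ovaries of Holstein Friesian cows collected at an abattoir. Each library is a pool of follicles holding both oocytes and pregranulosa cells. The T0 group has 3 libraries from PMF retrieved after collection, and the T16 group has 3 libraries from PMF retrieved after 16 h of culture. By the study's methods, freshly isolated PMF were left to recover briefly with insulin and FSH before lysis, whereas the conditions of the T16 culture are not given in the sources used here.

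Keratins are the intermediate filaments of epithelia and are built from obligate pairs of a type I and a type II chain. In simple epithelia the usual pair is KRT8 (type II) with KRT18 (type I), joined by KRT7 (type II) and KRT19 (type I) in many ducts and linings. Vimentin (VIM) is the type III filament of mesenchymal cells. E-cadherin (CDH1) and N-cadherin (CDH2) are calcium-dependent adhesion molecules that hold like cells together and bind catenins inside the cell. Granulosa cells are unusual among epithelia in that keratins, vimentin and N-cadherin can occur together in them, and the oocyte and the surface epithelium of the ovary carry cadherins as well.

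The libraries held 22174653 to 36703016 estimated counts, and 89.1% to 90.3% of these fell on transcripts that could be assigned to a gene. Transcripts of oocytes (DDX4, ZP3, FIGLA) and of pregranulosa cells (FOXL2, GATA4, NR5A1) were found in every library, but in very unequal amounts. TPM, a level scaled for transcript length and for the size of the library, served as the measure of abundance. The TPM summed over 12 oocyte genes was 474.5, 1807 and 2739 in T0 replicates 1, 2 and 3, and 1980, 79.2 and 736 in T16 replicates 1, 2 and 3. T0 replicate 1 and T16 replicate 2 were thus the libraries poorest in oocyte transcripts. Over all genes, 6 of 14639 tested genes (0.041%) differed between T16 and T0 at an FDR below 0.05 by edgeR, 5 of them higher (0.0342%) and 1 lower (0.00683%) at T16. DESeq2 called 7.02% of the tested genes, 4.06% higher and 2.96% lower. Limma voom with library weights called 9.22%, and 13.8% had an unadjusted p under 0.05 by edgeR. The voom weight was 5.2 for T0 replicate 2 and 0.437 to 1.2 for the other libraries. Every limma voom result below thus rests mostly on T0 replicate 2 for the T0 side.

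KRT8 was the most abundant member on average at both time points and among the most variable. It had 7671, 2383 and 418.5 TPM in T0 replicates 1, 2 and 3, and 241.4, 6286 and 1908 TPM in T16 replicates 1, 2 and 3. It thus stood at rank 4 of all genes by TPM in T0 replicate 1 and at rank 3 in T16 replicate 2, but at rank 393 in T0 replicate 3 and 859 in T16 replicate 1. The highest T0 library was 18.3 times the lowest, the highest T16 library 26.0 times the lowest, and the groups overlapped over nearly their whole range. The log2 fold change from T0 to T16 was -0.33 (SE 1.29, 95% interval -3.35 to 2.68, edgeR adjusted p = 0.945), so a change of several fold in either direction lay within the interval. Its sign turned without T0 replicate 1 (1.19) and without T16 replicate 1 (0.25), and without the pair of libraries poor in oocyte transcripts it was 0.0016. In pooled follicles, fewer cells of a type and less RNA per cell cannot be told apart.

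KRT18, the type I partner of KRT8, varied in the same way at a lower level. It had 1277, 349 and 63.3 TPM in T0 replicates 1, 2 and 3, and 196.5, 1341 and 474 TPM in T16 replicates 1, 2 and 3. T0 replicate 1 and T16 replicate 2 were again the high libraries, and T0 replicate 3 was the lowest of all. The log2 fold change was 0.22 (SE 1.10, 95% interval -2.36 to 2.81, edgeR adjusted p = 0.958). Its sign turned without T0 replicate 2 (-0.01), without T0 replicate 3 (-0.27) and without T16 replicate 2 (-0.64). It was 1.88 without T0 replicate 1 and 1.03 without the pair of libraries poor in oocyte transcripts (edgeR adjusted p = 0.642).

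KRT19, a type I keratin found where cells line ducts and surfaces, went the other way across libraries. It had 46.3, 158.5 and 206 TPM in T0 replicates 1, 2 and 3, and 237, 31.5 and 234.5 TPM in T16 replicates 1, 2 and 3. The libraries with the most KRT8 therefore had the least KRT19. The ratio of KRT8 to KRT19 TPM ranged from 1.02 in T16 replicate 1 and 2.04 in T0 replicate 3 to 166 in T0 replicate 1 and 199.5 in T16 replicate 2. The time points overlapped, and T16 differed from T0 by 0.51 on the log2 scale (SE 0.795, 95% interval -1.35 to 2.38, edgeR adjusted p = 0.846), or by 0.64 without the pair of libraries poor in oocyte transcripts. Without T16 replicate 3 alone this value was 0.02.

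KRT7, the type II keratin often paired with KRT19, was at the edge of detection. It had 33, 2 and 18 counts in T0 replicates 1, 2 and 3 and 0 counts in each T16 library. A count of 0 allows at most 0.116, 0.130 and 0.0906 CPM (counts scaled to the size of the library) in T16 replicates 1, 2 and 3, and T0 replicate 2 itself lay below such a limit. Against a limit of 3 counts over the T16 group, KRT7 was at least 20.3-fold lower at T16 in pooled CPM, and at least 11.7-fold lower without T0 replicate 1. These limits cover counting error only. KRT7 did not reach 10 counts in 3 libraries and was not tested; without that filter it did not pass (edgeR adjusted p = 0.273). Of the type II keratins among the members, KRT8 was thus the abundant one, at or above KRT19 in TPM in all 6 libraries.

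VIM had the smallest spread within groups of the 6 tested members on log2 CPM (SD 0.849). It had 2452, 1719 and 1066 TPM in T0 replicates 1, 2 and 3, and 424, 1320 and 978 TPM in T16 replicates 1, 2 and 3. The groups overlapped in TPM through 1 library, since T16 replicate 2 exceeded T0 replicate 3. On normalised CPM, T16 replicates 2 and 3 (1528 and 1393) both exceeded T0 replicate 3 (1122). The highest library was 2.30 times the lowest at T0 and 3.12 times at T16, against 18.3 and 26.0 times for KRT8, and CDH2 alone was more even at T16 (2.60 times). Mean VIM was 1745 TPM at T0 (SD 693, n = 3) and 907 TPM at T16 (SD 452, n = 3). The log2 fold change was -0.85 (SE 0.591, 95% interval -2.24 to 0.53, edgeR adjusted p = 0.607). The sign stayed negative in every alternative fit, and no fit called it (adjusted p from 0.342 to 0.856 in the other fits).

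**Figure D1:**
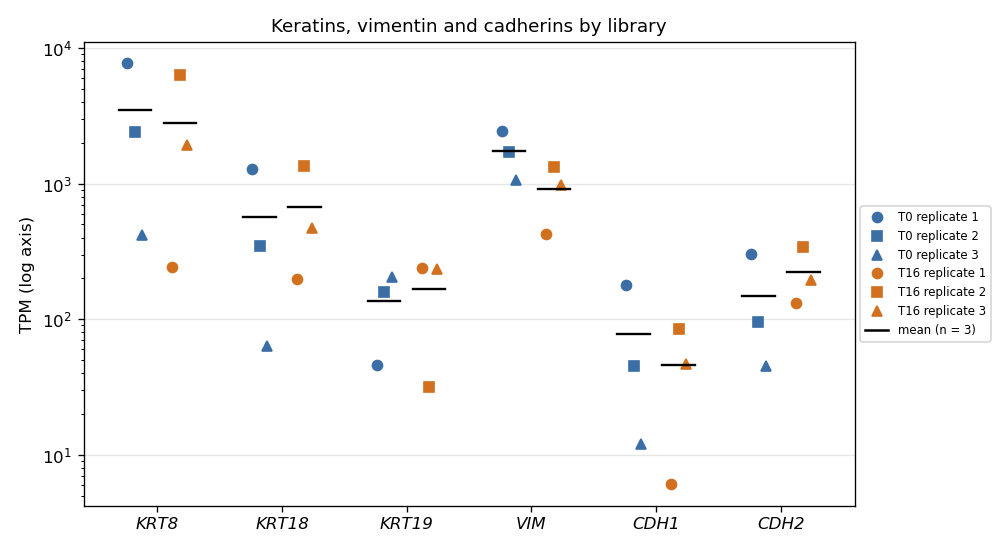
TPM (log axis) of 6 members in each library, with T0 in blue and T16 in orange, markers for replicates 1 to 3 and black lines for means (n = 3). KRT8, KRT18, CDH1 and CDH2 are highest at T0 in replicate 1 and at T16 in replicate 2, whereas KRT19 is lowest in those libraries; KRT7, at 0 counts in every T16 library, is left out.

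E-cadherin transcripts spanned more than an order of magnitude within each group. CDH1 had 178, 45.5 and 12.1 TPM in T0 replicates 1, 2 and 3, and 6.06, 84.9 and 46.5 TPM in T16 replicates 1, 2 and 3. The lowest library was T16 replicate 1, with 254 counts, and the highest was T0 replicate 1, with 7291. The log2 fold change was -0.77 (SE 1.15, 95% interval -3.48 to 1.94, edgeR adjusted p = 0.842), and without T0 replicate 1 it turned to 0.89. Without the pair of libraries poor in oocyte transcripts it was 0.25.

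N-cadherin was more abundant than E-cadherin in all 6 libraries. CDH2 had 304, 96.1 and 45.6 TPM in T0 replicates 1, 2 and 3, and 131.5, 342 and 196 TPM in T16 replicates 1, 2 and 3. All T16 libraries lay above T0 replicates 2 and 3, and T0 replicate 1 lay within the T16 range. The log2 fold change was 0.59 (SE 0.777, 95% interval -1.23 to 2.42, edgeR adjusted p = 0.812). Without T0 replicate 1 it was 1.86 (edgeR adjusted p = 0.205), and without both libraries poor in oocyte transcripts it was 1.503 (edgeR adjusted p = 0.245). Neither value passed the test. Without T0 replicate 3, T0 replicate 2 or T16 replicate 2 it was lower than in the full fit, at 0.18, 0.35 and 0.23.

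Of the 7 members, 6 passed the count filter, and 0 of these were called by edgeR, by DESeq2 or by limma voom. By edgeR, 0 had an unadjusted p under 0.05, beside 13.8% of all tested genes. The shares called over all tested genes were 0.041% by edgeR, 7.02% by DESeq2 and 9.22% by limma voom. The T0 and T16 libraries of all 6 overlapped on normalised CPM, whereas 23.8% of all tested genes did not overlap between the groups, 13.2% being higher and 10.6% lower at T16. The median log2 fold change of the 6 was -0.05, beside -0.08 over all tested genes. With 3 pools per group and this spread, changes smaller than the intervals given above were not detectable.

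**Figure D2:**
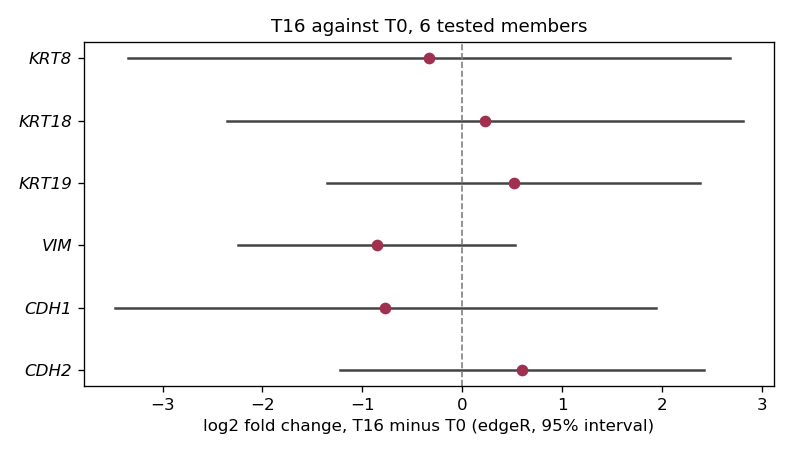
Log2 fold change of T16 against T0 for the 6 tested members (points) with 95% intervals (lines), from the edgeR fit over all genes. All 6 intervals include 0, and the narrowest, that of VIM, runs from -2.24 to 0.53.

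The order of mean levels was the same at both time points, on the TPM scale. It ran from KRT8 through VIM, KRT18, CDH2, KRT19 and CDH1 to KRT7. Only CDH1 and KRT7 were apart as neighbours, with every CDH1 library above every KRT7 library in each group. The other neighbouring genes overlapped in their ranges, although KRT18 exceeded CDH2 in each of the 6 libraries. In T0 replicate 3 and T16 replicate 1, VIM exceeded KRT8.

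Ratios of members were also taken within each library, and no test was made of them. KRT8 exceeded KRT18 by 6.01, 6.83 and 6.61 times in TPM in T0 replicates 1, 2 and 3, although KRT8 itself spanned 18.3-fold there. At T16 the ratio was 1.23, 4.69 and 4.03 in replicates 1, 2 and 3, so every T16 library lay below every T0 library. The mean log2 ratio was 2.69 (SD 0.0963, n = 3) at T0 and 1.51 (SD 1.06, n = 3) at T16, a difference of -1.18. Without T16 replicate 1 the difference was -0.58, and without the pair of libraries poor in oocyte transcripts it was -1.60.

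The ratio of E-cadherin to N-cadherin showed the same kind of separation. CDH1 made up 36.9%, 32.1% and 21.0% of the summed CDH1 and CDH2 TPM in T0 replicates 1, 2 and 3, and 4.41%, 19.9% and 19.2% in T16 replicates 1, 2 and 3. Each T16 library was below each T0 library, but T0 replicate 3 and T16 replicate 2 differed by about a percentage point. For this ratio and that of KRT8 to KRT18, the share of other gene pairs that separate the groups was not computed. Of single tested genes, 23.8% did not overlap between the groups. The mean log2 ratio was -1.25 (SD 0.584, n = 3) at T0 and -2.83 (SD 1.37, n = 3) at T16, a difference of -1.58, or -0.79 without T16 replicate 1 and -1.75 without the pair of libraries poor in oocyte transcripts. The summed TPM of the 4 keratins over that of VIM overlapped between the groups, with ratios of 3.67, 1.68 and 0.646 in T0 replicates 1, 2 and 3 and 1.59, 5.80 and 2.68 in T16 replicates 1, 2 and 3.

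**Figure D3:**
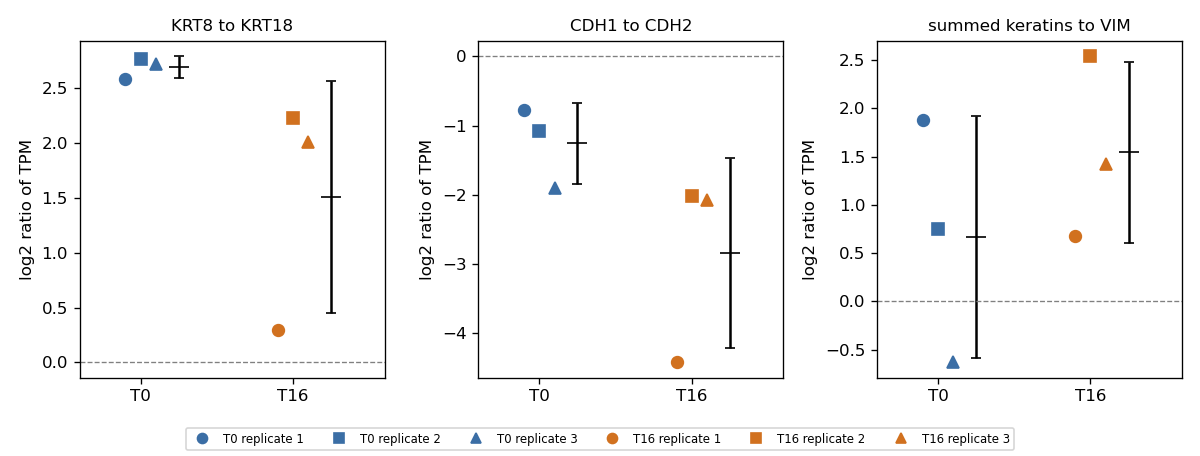
Log2 ratio of TPM in each library for KRT8 to KRT18 (left), CDH1 to CDH2 (middle) and the 4 summed keratins to VIM (right), with mean and SD (black, n = 3). In the left and middle panels all T16 libraries lie below all T0 libraries, with T16 replicate 1 farthest, at 0.30 and -4.42, and in the right panel the groups overlap.

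Of the 6 tested members, 5 had the same order of libraries, and KRT19 did not. On normalised CPM, KRT8 was ordered T0 replicate 1, 2, 3 and T16 replicate 2, 3, 1 from high to low, and KRT18, VIM, CDH1 and CDH2 had the same order in both groups. The order was chosen after the values were seen, and 11.5% of the tested genes shared it, as many as had the reverse order (11.5%). All 12 oocyte markers were tested, and 8 of them had the reverse order while 0 had that of KRT8. Of 12 pregranulosa markers 3 had the order of KRT8 and 2 the reverse. ZP3, a zona pellucida gene of the oocyte, had 175.5, 799 and 1211 TPM in T0 replicates 1, 2 and 3, and 729, 20.3 and 335 TPM in T16 replicates 1, 2 and 3.

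Markers of other cell types also differed between libraries. The summed TPM of 8 smooth muscle genes was 414, 331.5 and 108 in T0 replicates 1, 2 and 3, and 26.8, 111 and 57.3 in T16 replicates 1, 2 and 3. It was lowest in T16 replicate 1, where KRT8, VIM and CDH1 were lowest too. The 8 stromal genes summed to 803 to 955 TPM at T0 and to 271, 573 and 1022 TPM in T16 replicates 1, 2 and 3. The stromal genes differed among themselves in T16 replicate 1, where the proteoglycan LUM was at 0.0718 TPM, against 96.5 TPM or above elsewhere, and the growth factor receptor PDGFRA was at 112 TPM, above T0 replicates 2 and 3. DCN, another proteoglycan of stroma, had 199, 489.5 and 461 TPM in T0 replicates 1, 2 and 3, and 152, 165 and 120.5 TPM in T16 replicates 1, 2 and 3 (edgeR adjusted p = 0.179, DESeq2 adjusted p = 0.0245). DCN and C7 were lower at T16 by both DESeq2 and limma voom, though C7 was at most 0.616 TPM at T0. C7 had 0 counts in each T16 library. By edgeR, 0 of the 8 stromal and 0 of the 7 tested smooth muscle genes were called. In each list 2 had an unadjusted p under 0.05, beside 13.8% of all tested genes. Of the smooth muscle genes, limma voom called MYH11 (adjusted p = 0.0434) and DESeq2 called 0, and their median log2 fold change was -1.95. Among all tested genes, DESeq2 called 7.02% and limma voom 9.22%. Without overlap, 2 stromal and 3 smooth muscle genes were lower at T16, beside 10.6% of all tested genes.

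The 12 pregranulosa genes summed to 774 to 1695 TPM at T0 and to 519 to 1567 TPM at T16, with the highest T16 value in replicate 2. FST, which binds activin and which granulosa cells make, had 89.6, 90.0 and 24.5 TPM in T0 replicates 1, 2 and 3, and 259, 513 and 288 TPM in T16 replicates 1, 2 and 3 (edgeR adjusted p = 0.140, DESeq2 adjusted p = 0.00226). On normalised CPM, though not in TPM at T0, FST had the order of KRT8 within each group. WNT6 had 39.0, 155 and 74.6 TPM at T0 and 0.0547, 15.1 and 1.54 TPM at T16 (edgeR adjusted p = 0.306, DESeq2 adjusted p = 0.0250). FOXL2, a transcription factor of granulosa cells, had 38.5, 141 and 37.3 TPM at T0 and 3.37, 20.1 and 15.1 TPM at T16 (edgeR adjusted p = 0.280, DESeq2 adjusted p = 0.0505). The pregranulosa list had a median log2 fold change of -1.33, with 2 of 12 genes above 0, and 4 genes lower and 1 higher in every T16 library. Of the 12, 0 were called by edgeR and 4 had an unadjusted p under 0.05, while DESeq2 called 1 higher and 2 lower. Limma voom called 2 of them. Over all tested genes, 23.8% did not overlap between the groups and 13.8% had such a p by edgeR. DESeq2 called 7.02% of all tested genes and limma voom 9.22%.

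Mesothelial markers bear on the keratins and CDH1, which the surface epithelium of the ovary also makes. The 6 of them summed to 155, 361 and 162 TPM in T0 replicates 1, 2 and 3, and to 49.4, 91.5 and 73.4 TPM in T16 replicates 1, 2 and 3, mostly from UPK1B, and every T16 library was below every T0 library. Their order at T16 was that of KRT8, whereas at T0 the highest sum was in replicate 2. MSLN, a surface protein of mesothelium, had 21.8, 15.8 and 11.9 TPM in T0 replicates 1, 2 and 3, and 2.32, 1.73 and 3.84 TPM in T16 replicates 1, 2 and 3 (edgeR adjusted p = 0.187, DESeq2 adjusted p = 0.00608). CALB2 was also lower in every T16 library, at 1.65 to 6.28 TPM at T0 and 0 to 1.00 TPM at T16 (edgeR adjusted p = 0.464). BNC1 was at 1.65 to 16.6 TPM, LRRN4 at 0 to 1.65 TPM and UPK3B at 0.187 to 1.02 TPM over the 6 libraries, with overlapping groups. UPK1B was lower in every T16 library too (edgeR adjusted p = 0.283). Of the 6, 0 were called by edgeR and 2 had an unadjusted p under 0.05, and DESeq2 called MSLN alone. Limma voom called 0, and 3 were lower without overlap. Over all tested genes, 13.8% had such a p by edgeR, DESeq2 called 7.02% and 10.6% were lower without overlap.

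The 9 endothelial genes summed to 24.0 to 392.5 TPM at T0 and to 16.3 to 39.1 TPM at T16. CLDN5 was the largest of them in 5 libraries and TEK, at 8.18 TPM, in T16 replicate 1, while PECAM1 was at most 6.57 TPM and CDH5 at most 1.54 TPM. CLDN5 was lower at T16 by DESeq2 (adjusted p = 0.0127) but not by edgeR (adjusted p = 0.259) or limma voom (adjusted p = 0.269). Its groups overlapped, and it had the order of KRT8. It was the 1 DESeq2 call among 7 tested endothelial genes, beside 7.02% of all tested genes. The 8 immune genes summed to 9.66 to 49.97 TPM at T0 and to 4.08 to 58.5 TPM at T16. CSF1R was the largest of them in every library but T16 replicate 2, where it was at 0.0736 TPM. CD68, a macrophage gene, had 0, 0 and 0.838 TPM in T0 replicates 1, 2 and 3, and 14.2, 1.00 and 5.51 TPM in T16 replicates 1, 2 and 3, and was higher at T16 by limma voom (adjusted p = 0.0273) but not by edgeR (adjusted p = 0.356). PTPRC was at most 0.935 TPM, and C1QA was at 0 counts in every library. The part of these cell types in the values of the members was not tested.

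**Figure D4:**
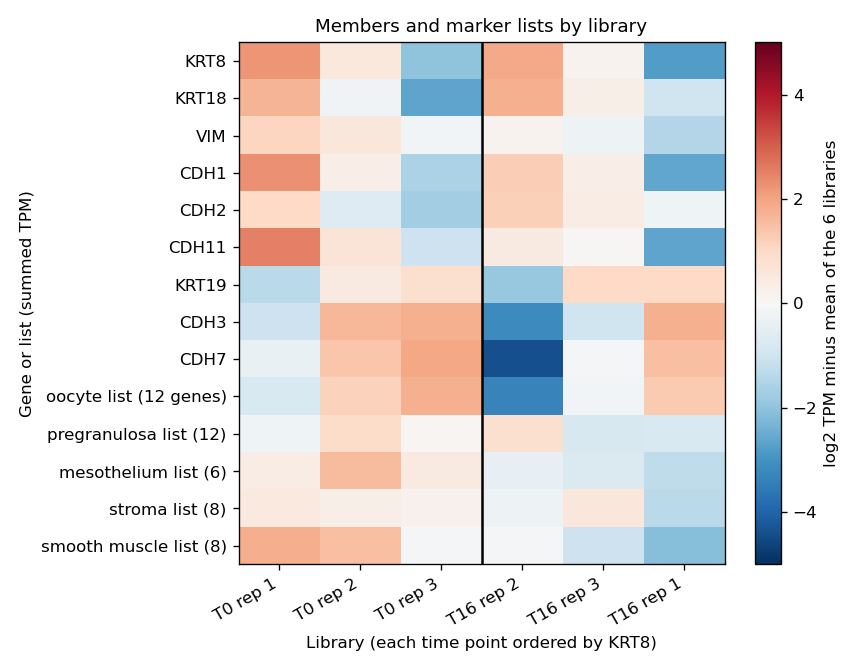
Log2 TPM minus the mean over the 6 libraries for members, CDH3, CDH7, CDH11 and the summed TPM of 5 marker lists, with the libraries of each time point ordered by KRT8. KRT8, KRT18, VIM, CDH1, CDH2 and CDH11 fall from left to right within T0, and the oocyte list, KRT19, CDH3 and CDH7 rise there.

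Other keratins contributed little. Of 50 further keratin genes in the files, 15 had 0 counts in every library and 10 passed the count filter. The most abundant by mean TPM were KRT34, from 0 to 6.47 TPM, and KRT42, from 0 to 9.35 TPM, and the highest single value was 10.6 TPM, for KRT14 in T16 replicate 3, named after its value was seen. The summed TPM of all 50 was 7.18 to 28.2 per library, against 675 to 8996 TPM for the 4 member keratins. By edgeR, 0 of the 10 were called and 0 had an unadjusted p under 0.05, and DESeq2 and limma voom called 0 too. The shares called over all tested genes were 0.041% by edgeR, 7.02% by DESeq2 and 9.22% by limma voom, and 13.8% had such a p. KRT8 and KRT18 stand near each other on the same chromosome in the RefSeq gene table, with 1 gene listed between them, and 34 genes, 24 of them keratins, lie between KRT8 and KRT7.

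Among the other cadherins, P-cadherin (CDH3) and CDH7 ran against CDH1 and CDH2. CDH3 had 15.9, 104 and 112 TPM in T0 replicates 1, 2 and 3, and 112, 3.61 and 16.6 TPM in T16 replicates 1, 2 and 3. In T0 replicates 2 and 3 it was thus more abundant than CDH2, whereas CDH2 was 19.2 times as abundant in T0 replicate 1 and 94.7 times in T16 replicate 2. CDH7 had 9.04, 31.4 and 45.5 TPM at T0 and 33.5, 0.570 and 11.2 TPM at T16 in the same order of replicates. Both had the reverse order of KRT8, as did 6 of the 17 tested other cadherins (11.5% of all tested genes).

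CDH11, a mesenchymal cadherin named after its values were seen, was the 1 of these 17 with the order of KRT8. It had 64.2, 17.7 and 5.55 TPM in T0 replicates 1, 2 and 3, and 1.81, 15.7 and 11.9 TPM in T16 replicates 1, 2 and 3. Of the 17, 0 were called by edgeR, 1 had an unadjusted p under 0.05, and limma voom called 0. DESeq2 called 1 higher, CDH8, whose log2 fold change was 2.26 (edgeR adjusted p = 0.249, DESeq2 adjusted p = 0.0465). CDH8 had 4.48, 5.77 and 1.46 TPM in T0 replicates 1, 2 and 3, and 13.3, 26.9 and 3.90 TPM in T16 replicates 1, 2 and 3, so that in TPM the groups overlapped. CDH6 and CDH9 were lower in every T16 library than in any T0 library, with CDH6 at 2.10, 22.2 and 2.97 TPM at T0 and at most 0.818 TPM at T16, and CDH9 at most 0.712 TPM at either time point. Neither was called (edgeR adjusted p = 0.379 and 0.509). On normalised CPM, 1 of the 17 was higher and 2 were lower without overlap, beside 13.2% and 10.6% of all tested genes. Of all tested genes, 13.8% had an unadjusted p under 0.05 by edgeR, DESeq2 called 7.02% and limma voom 9.22%.

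The remaining intermediate filament genes, 14 in the list and 10 tested, included 2 genes that differed by limma voom. Synemin (SYNM), a large filament protein that assembles with vimentin and desmin, had 2.74, 3.94 and 2.85 TPM in T0 replicates 1, 2 and 3, and 0.563, 0.217 and 0.273 TPM in T16 replicates 1, 2 and 3. The nuclear lamin gene LMNA had 236, 107 and 170 TPM at T0 and 304, 468.5 and 402 TPM at T16 in the same order. Neither gene overlapped between groups, which held for 3 of the 10 genes and for 23.8% of all tested genes. By edgeR 0 of the 10 were called and 2 had an unadjusted p under 0.05, while limma voom called both SYNM and LMNA and DESeq2 called SYNM alone. Among all tested genes, 13.8% had such a p by edgeR, limma voom called 9.22% and DESeq2 7.02%. The log2 fold change of SYNM was -3.19 (edgeR adjusted p = 0.126, DESeq2 adjusted p = 9.3e-05) and that of LMNA 1.26 (edgeR adjusted p = 0.260). LMNB1, the other abundant lamin, followed the order of KRT8 and ranged from 0.341 to 68.7 TPM.

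Desmosomes are the junctions to which keratin filaments attach. Their genes were taken in the same list as linkers of the cytoskeleton such as PLEC, MACF1 and DST, and the list did not move as a group. Desmoglein 2 (DSG2), a desmosomal cadherin, had 7.04, 10.1 and 3.12 TPM in T0 replicates 1, 2 and 3, and 26.2, 49.7 and 58.0 TPM in T16 replicates 1, 2 and 3. Desmoplakin (DSP), which ties the keratin filaments to the junction, had 1.24, 4.53 and 1.27 TPM at T0 and 0.900, 0.387 and 0.294 TPM at T16. The groups did not overlap in either gene, with DSG2 above and DSP below T0. For DSG2 the log2 fold change was 2.87 (edgeR adjusted p = 0.107, DESeq2 adjusted p = 0.00015) and for DSP -2.20 (edgeR adjusted p = 0.282, DESeq2 adjusted p = 0.0578). Plakoglobin (JUP), shared by desmosomes and adherens junctions, was the most abundant of the list, at 136 to 190 TPM at T0 and 154 to 424 TPM at T16. Of 14 tested genes, linkers included, 0 were called by edgeR and 3 had an unadjusted p under 0.05, DESeq2 called 1, limma voom called 2, and 3 did not overlap. The linker PLEC, named after its values were seen, did not overlap, was higher at T16 and was called by limma voom (adjusted p = 0.0263). Over all tested genes, 13.8% had such a p, 23.8% did not overlap, DESeq2 called 7.02% and limma voom 9.22%.

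The catenins bind the tails of classical cadherins, and the most abundant of them was more even across libraries than CDH1 or CDH2. Beta-catenin (CTNNB1) had 404.5, 308 and 302.5 TPM in T0 replicates 1, 2 and 3, and 503, 510 and 276 TPM in T16 replicates 1, 2 and 3. NECTIN2, an adhesion molecule of the same junction, ranged from 95.8 to 294 TPM and had the order of KRT8. NECTIN1 was higher and MAGI1 lower in every T16 library on normalised CPM, with log2 fold changes of 1.19 and -1.14 (edgeR adjusted p = 0.634 and 0.499). Of the 16 genes tested, 0 were called by edgeR, DESeq2 or limma voom, 0 had an unadjusted p under 0.05, and the median log2 fold change was -0.07. Over all tested genes, edgeR called 0.041%, DESeq2 7.02% and limma voom 9.22%. Such a p by edgeR was found for 13.8% of all tested genes, and 23.8% did not overlap between the groups.

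**Figure D5:**
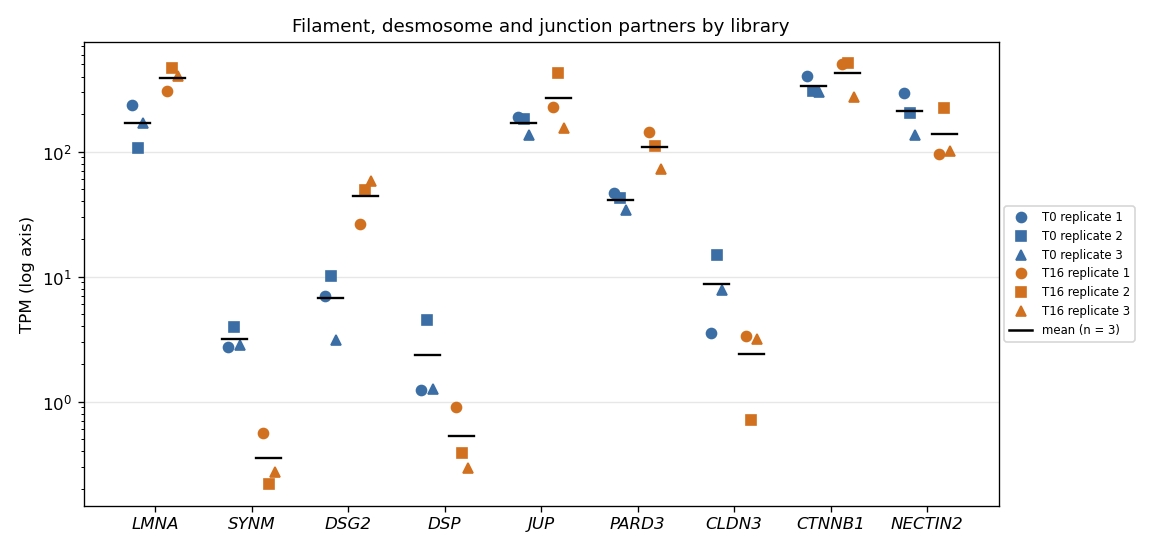
TPM (log axis) of 9 partner genes in each library, with T0 in blue, T16 in orange and means as black lines (n = 3). LMNA, DSG2 and PARD3 lie higher and SYNM, DSP and CLDN3 lower in every T16 library than in any T0 library, while JUP, CTNNB1 and NECTIN2 overlap.

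Among the epithelial junction and identity genes, 1 was called by DESeq2 and by limma voom, PARD3. PARD3, a polarity scaffold, had 47.1, 42.3 and 34.0 TPM in T0 replicates 1, 2 and 3, and 144, 112 and 73.0 TPM in T16 replicates 1, 2 and 3. All T16 libraries were above all T0 libraries, by 1.45 on the log2 scale (edgeR adjusted p = 0.138, DESeq2 adjusted p = 0.00617). The tight junction gene CLDN3 had 3.55, 14.9 and 7.76 TPM at T0 and 3.36, 0.712 and 3.18 TPM at T16, and the splicing factor ESRP2 had 0.355, 0.561 and 1.78 TPM at T0 and 0.173, 0 and 0 TPM at T16, neither of which passed the test (edgeR adjusted p = 0.519 and 0.411). CLDN1, the highest of the list in mean TPM over the 6 libraries, spanned 13.5 to 276 TPM at T0 and 5.82 to 77.4 TPM at T16. PARD3 exceeded CLDN1 in T0 replicate 3 and in every T16 library. Of 22 tested genes 6 did not overlap, 4 higher and 2 lower, near the 23.8% of all tested genes. By edgeR 0 were called and 3 had an unadjusted p under 0.05, beside 13.8% of all tested genes. DESeq2 called 7.02% and limma voom 9.22% of all tested genes.

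The transcription factors that drive the change from epithelial to mesenchymal state gave no call by any of the 3 tools. Of the 12 tested, 0 had an unadjusted p under 0.05 by edgeR, beside 13.8% of all tested genes. The shares called over all tested genes were 0.041% by edgeR, 7.02% by DESeq2 and 9.22% by limma voom. Without overlap on normalised CPM, 1 of the 12 was higher and 2 were lower, beside 13.2% and 10.6% of all tested genes. SNAI2 had 98.9, 14.3 and 30.1 TPM in T0 replicates 1, 2 and 3, and 5.09, 24.98 and 225.5 TPM in T16 replicates 1, 2 and 3. It differed more within each time point than between them (log2 fold change 1.02, SE 1.36, edgeR adjusted p = 0.817). PRRX1 was higher in every T16 library, at 1.53, 17.5 and 14.5 TPM at T0 and 26.6, 30.1 and 22.7 TPM at T16 (edgeR adjusted p = 0.381). TCF12 was even, at 36.0 to 76.8 TPM, and KLF8, lower in every T16 library on normalised CPM, ranged from 0 to 0.842 TPM (edgeR adjusted p = 0.683).

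The genes most like each member were those with the highest Pearson r of log2 CPM over the 6 libraries, among the 2781 tested genes whose log2 CPM averaged 3 or more with an SD of 1 or more. These values are a description, since all genes share the same 6 libraries. For KRT8 they were ZBTB7C (r = 0.999), SCAMP4 (0.998) and TIRAP (0.990), and for KRT18 CHPF2 (0.989), FAM83H (0.984) and TGFB1 (0.978). CDH1 had CPT2 (0.993), SCAMP4 (0.991) and GPX7 (0.990), so SCAMP4 stood among the nearest of both KRT8 and CDH1. CDH2 had DOK5 (0.997), PPFIBP1 (0.995) and the receptor kinase MERTK (0.988). VIM had CISD3 (0.999), TCN2 (0.997) and ORMDL3 (0.996), and KRT19 had GKAP1 (0.964), RAB40B (0.963) and NPM3 (0.956). GKAP1 had 26.7, 119 and 168 TPM in T0 replicates 1, 2 and 3, and 155, 34.4 and 135 TPM in T16 replicates 1, 2 and 3, lowest where KRT19 was lowest.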

How the data were processed

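SMART-Seq v4 cDNA of follicle pools was sequenced in 6 libraries (3 at T0, 3 at T16). Per the study's methods, the authors cleaned the reads with Trim Galore and fastp and quantified them with Salmon on the ARS-UCD1.3 transcriptome. The authors deposited, per RefSeq transcript, a Salmon estimated count (NumReads) and TPM, beside transcript lengths. Accessions without version were paired with symbols through a RefSeq table of ARS-UCD2.0, used for names and for which genes neighbour each other, with no coordinates printed (50205 of 76123 matched). Each gene received the sum of its transcripts, with sums of estimated counts rounded. Unmatched transcripts, 9.74% to 10.9% of the counts, were left out. Each member had 1 transcript, and reads shared with near-identical copies could be split.

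The contrast of T16 with T0 was fitted in edgeR 4.0.16 under R 4.3.3 (TMM, quasi-likelihood test, 10 or more counts in 3 or more libraries, Benjamini-Hochberg FDR below 0.05). DESeq2 1.42.0 and limma 3.58.1 (voom) were alternatives. Groups not overlapping and the order of libraries were judged on TMM-normalised CPM. Ratios used TPM with 0.1 added. The fit was tested on simulated data. Named are all members and, in each list, genes past the FDR, the 2 of highest mean TPM and up to 2 that did not overlap with the largest change. Of the fixed oocyte, pregranulosa, mesothelium, stroma, smooth muscle, endothelium and immune lists, sums and single genes are given. The members and lists were chosen with earlier results of these data known. The study's methods describe pools of freshly isolated follicles from several cows as biological replicates. Which cows gave which pool, and how the T16 pools were formed, is not stated in the sources used here, so p-values measure the spread between pools, part of which may be technical. The fit without both T0 replicate 1 and T16 replicate 2, and the genes said to be named after their values were seen, were chosen after seeing the data.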

Additional observations from a re-analysis of the deposited data

How the results depend on the processing

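In 84 alternative fits of the 6 tested members none was called (lowest adjusted p 0.142, for CDH2 with limma voom), and 72 kept their direction. KRT8 turned to 0.50 with the replicate number as a block, 0.0829 with limma voom and 0.0016 without both T0 replicate 1 and T16 replicate 2, an alternative added after the data were seen. CDH1 turned to 0.13, 0.0935 and 0.25 in the same fits. Leaving out each library in turn gave log2 fold changes from -1.53 to 1.19 for KRT8, -0.64 to 1.88 for KRT18, 0.02 to 1.01 for KRT19, -1.15 to -0.39 for VIM, -1.41 to 0.89 for CDH1 and 0.18 to 1.86 for CDH2. The log2 ratios kept their direction under all alternatives run. With 1 library left out they ranged from -1.54 to -0.58 (KRT8 to KRT18), -1.99 to -0.79 (CDH1 to CDH2) and 0.23 to 1.48 (keratins to VIM), and without both T0 replicate 1 and T16 replicate 2 they were -1.60, -1.75 and 0.99. Over all genes, DESeq2 called 594 higher and 433 lower and limma voom 1021 and 329. Without the count filter 4 were lower, and with at least 50 counts 2. The replicate block, and the fit without both libraries, called 0 higher and 0 lower (1385 and 2794 genes at an unadjusted p under 0.05 by edgeR). With 1 library left out edgeR called 0 to 2 higher and 0 to 1 lower (1038 to 2379 at an unadjusted p under 0.05). The cause of these differences was not tested. Deviations from the group means correlated at -0.445, -0.121 and -0.0047 for replicate numbers 1, 2 and 3 across genes. Libraries of the same number thus did not deviate alike. As the libraries also differed widely in oocyte transcripts, these values cannot show whether pools of the same number shared cows.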
